A study of Mus musculus with 6 samples.

Results

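Adrenergic receptors are the cell's sensors for noradrenaline and adrenaline. Beta receptors act through the stimulatory G protein Gs on adenylate cyclases, which make the second messenger cyclic AMP (cAMP), while alpha-1 receptors act mainly through Gq on phospholipase C and calcium. Cyclic nucleotide phosphodiesterases (PDEs) break cAMP down, so the level of the messenger follows both its synthesis and its removal. In macrophages, cAMP is known to activate protein kinase A and the transcription factor CREB and to dampen the release of inflammatory cytokines.

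The genes described here are 9 listed genes of this route out of 47729 genes counted, a list drawn up by symbol with earlier results of these data known. They comprised the receptors *Adrb1* and *Adra1a*, the cyclase *Adcy7*, and the phosphodiesterases *Pde3b*, *Pde4a*, *Pde4b*, *Pde4d*, *Pde7a* and *Pde8a*. All 9 passed the filter on low counts, which kept 17406 genes. They were measured by RNA-seq in immortalized bone marrow-derived macrophages (BMMs) of *Aif1*-/- mice (3 libraries) and of WT mice (3 libraries). *Aif1* encodes allograft inflammatory factor-1, a calcium-binding protein of macrophages. The mice were males aged 8 weeks, *Aif1*-/- mice backcrossed to C57BL/6J and WT C57BL/6J mice, and their femurs and tibias gave the marrow. The cells of both genotypes were immortalized with SV40 large T antigen and were used at passages 3 to 5 in alpha-MEM with 10% fetal bovine serum and 120 ng/ml CSF-1, with no adrenergic agonist named in the sources used here. Each genotype is described as 3 independent animals, and the sources used here do not say if their cells were immortalized apart from each other. The p-values below therefore measure the spread between these 6 libraries, and if a genotype's libraries share a line, line and genotype cannot be told apart.

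The counts assigned to genes numbered 17707986 to 26486393 in the *Aif1*-/- libraries and 23253869 to 29314253 in the WT libraries. *Aif1* itself had raw counts of 4, 4 and 1 in *Aif1*-/- BMMs, against 220, 157 and 239 in WT BMMs. Reads assigned to no gene, which can lie in introns or between genes, took 33.6% to 35.7% of counted reads in *Aif1*-/- libraries. In WT replicates 1, 2 and 3 they took 32.4%, 40.4% and 25.5%. The immediate early gene *Fosb* had 39 to 81 raw counts in *Aif1*-/- libraries, against 13, 702 and 11 in WT replicates 1, 2 and 3. WT replicates 2 and 3 thus lay outside the range of the other libraries in their share of such reads, in opposite directions. WT replicate 2 did so in *Fosb* too. Without WT replicate 3, 2404 of all genes were higher and 2485 lower, the most calls with any library left out, against 1399 and 1832 with all 6. All 8 macrophage markers were detected, 6 of them higher and *Cd14* lower in *Aif1*-/- BMMs, with a summed level of 119492 to 121463 normalized counts in *Aif1*-/- libraries and 82506 to 99797 in WT libraries. The summed adipocyte markers were 0 to 2.66 normalized counts in *Aif1*-/- libraries and 1.69 to 5.09 in WT libraries, with *Lep* and *Cidea* at 0 counts throughout. The neuron and glia markers summed to 53.3 to 67.2 in *Aif1*-/- libraries and 85.7 to 128 in WT libraries, mostly from *Tubb3*, which was lower (log2 fold change -0.92, adjusted p = 0.0216), while the noradrenergic *Th*, *Dbh* and *Slc6a2* had 0 counts throughout. The endothelial markers summed to 679 to 743 in *Aif1*-/- libraries and 914 to 1058 in WT libraries, mostly from *Kdr*, which was lower (-0.49, adjusted p = 0.00260). The summed platelet markers were 2001 to 2094 normalized counts in *Aif1*-/- libraries and 932 to 1049 in WT libraries, mostly from *Pf4*. Of 4 tested, *Pf4* (0.97, adjusted p = 1.68e-05), *Treml1* (1.94, adjusted p = 2.64e-04) and *Ppbp* (4.41, adjusted p = 0.00425) were higher and 1 was not called. The part of these marker differences in the results below was not tested.

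Among the 9 genes, *Pde3b* and *Pde4a* were higher and *Adrb1* and *Adra1a* were lower in *Aif1*-/- BMMs at an adjusted p under 0.05 (edgeR's quasi-likelihood test, Benjamini-Hochberg adjustment over all genes tested). *Adcy7*, *Pde4b*, *Pde4d*, *Pde7a* and *Pde8a* did not pass. Of all genes tested, 18.6% were called in either direction, 8.04% as higher and 10.5% as lower, beside 44.4% of these 9, a description only because of how the list was drawn up. Their median log2 fold change (*Aif1*-/- minus WT) was 0.09, against -0.0035 over all genes tested. The libraries of the genotypes did not overlap for 6 of the 9 genes (66.7%), and this was so for 35.7% of all genes tested. In bulk RNA, fewer cells that express a gene and less RNA per cell cannot be told apart. Values below are normalized counts, brought to the mean library size, unless they are named as raw counts or as levels per kilobase.

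**Figure D1:**
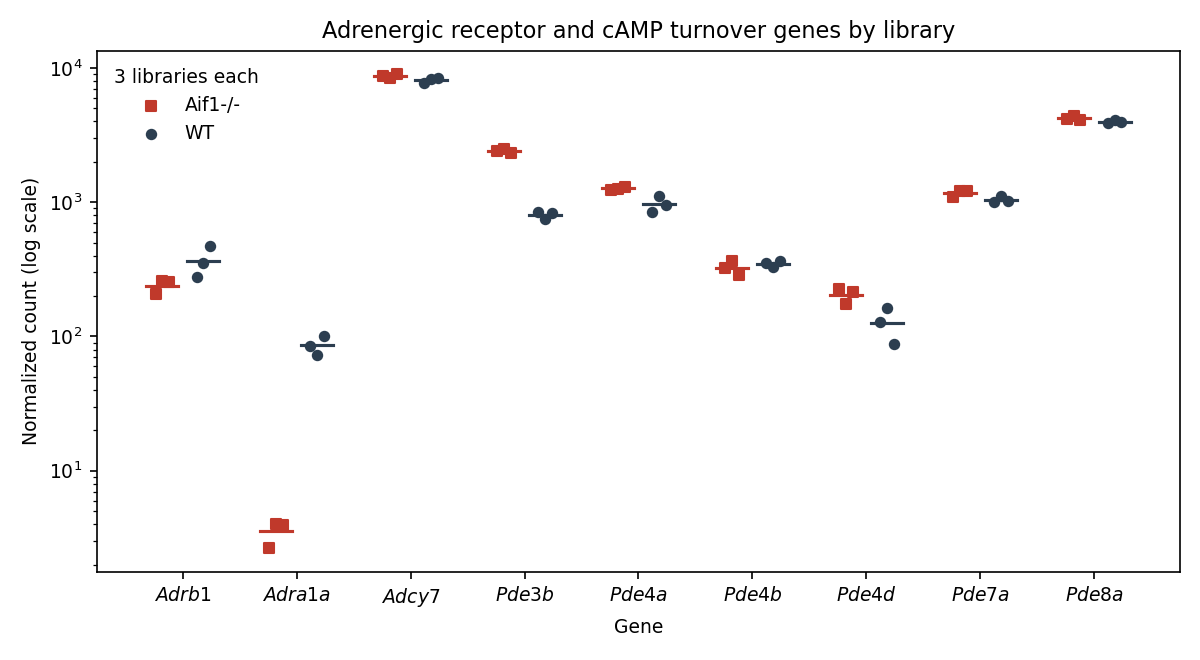
Normalized counts (log scale) of the 9 genes in the 3 Aif1-/- libraries (squares) and the 3 WT libraries (circles), with the mean of each genotype as a line. Adra1a lay at 2.65 to 4.0 in Aif1-/- BMMs and at 73.0 to 101 in WT BMMs, and Pde3b lay at 2342 to 2488 in Aif1-/- BMMs and at 744 to 846 in WT BMMs.

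*Adra1a* (ENSMUSG00000045875, GRCm38 chromosome 14, 66635251 to 66771168, plus strand) encodes the alpha-1A receptor, which couples to Gq. It had 3, 3 and 3 raw counts in *Aif1*-/- replicates 1, 2 and 3, against 84, 86 and 120 in WT replicates 1, 2 and 3. In normalized counts these were 2.65, 4.0 and 3.95 in *Aif1*-/- BMMs, against 84.5, 73.0 and 101 in WT BMMs. Every *Aif1*-/- library was far under every WT library, and the *Aif1*-/- values rested on a few reads each. The gene averaged 3.53 ± 0.764 in *Aif1*-/- BMMs and 86.3 ± 14.3 in WT BMMs (SD, n = 3 each). It was 24.3-fold lower, a log2 fold change of -4.61 (SE 0.35, 95% interval -5.38 to -3.83, adjusted p = 7.24e-06). An exact two-sided permutation test over the 6 libraries gave p = 0.1, the smallest it can give with 3 against 3. The call was kept in all 15 alternative settings, in which the log2 fold change lay between -4.71 and -4.39.

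*Adrb1* (ENSMUSG00000035283, chromosome 19, 56722199 to 56733113, plus strand) encodes the beta-1 receptor, which couples to Gs and raises cAMP. It had 208, 257 and 253 normalized counts in *Aif1*-/- replicates 1, 2 and 3, against 277, 354 and 473 in WT replicates 1, 2 and 3. The highest *Aif1*-/- library was under the lowest WT library, by a narrow gap, and the WT libraries were widely spread, with a coefficient of variation of 11.2% in *Aif1*-/- BMMs and 26.9% in WT BMMs. The means were 239 ± 26.9 in *Aif1*-/- BMMs and 368 ± 98.9 in WT BMMs (SD, n = 3 each). *Adrb1* fell by 35.3% (log2 fold change -0.63, SE 0.19, 95% interval -1.05 to -0.21, adjusted p = 0.0443). This call depended on single libraries. Without WT replicate 3 the log2 fold change was -0.40 (adjusted p = 0.0501), and without *Aif1*-/- replicate 1, 2 or 3 the adjusted p was 0.194, 0.101 or 0.107. It was also lost by limma-voom (adjusted p = 0.0653).

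The cyclase *Adcy7* (ENSMUSG00000031659, chromosome 8, 88272403 to 88329962, plus strand) makes cAMP at the plasma membrane and is known as a cyclase of blood cells. Its normalized counts were 8728, 8376 and 8960.2 in *Aif1*-/- replicates 1, 2 and 3, against 7778, 8303 and 8428 in WT replicates 1, 2 and 3. The genotypes overlapped, since *Aif1*-/- replicate 2 lay under WT replicate 3. *Adcy7* averaged 8688 ± 294 in *Aif1*-/- BMMs and 8169.7 ± 345 in WT BMMs (SD, n = 3 each). Its log2 fold change of 0.09 did not pass (SE 0.06, 95% interval -0.05 to 0.23, adjusted p = 0.421), which is an interval of 0.963-fold to 1.17-fold on the linear scale.

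Of the phosphodiesterases, *Pde3b* (ENSMUSG00000030671, chromosome 7, 114415281 to 114539251, plus strand) had the smallest adjusted p. PDE3B hydrolyses cAMP, is inhibited by cGMP, and is best known for carrying the antilipolytic action of insulin in adipocytes. It had 2389, 2488 and 2342 normalized counts in *Aif1*-/- replicates 1, 2 and 3, against 846, 744 and 831 in WT replicates 1, 2 and 3. Every *Aif1*-/- library was well above every WT library, and both genotypes were tight, with coefficients of variation of 3.08% in *Aif1*-/- BMMs and 6.80% in WT BMMs. *Pde3b* averaged 2406 ± 74.2 in *Aif1*-/- BMMs and 807 ± 54.8 in WT BMMs (SD, n = 3 each), and was 2.98-fold higher (log2 fold change 1.58, SE 0.08, 95% interval 1.41 to 1.74, adjusted p = 3.03e-07). The call was kept in all 15 alternative settings, between 1.53 and 1.61 on the log2 scale.

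The PDE4 enzymes are specific for cAMP and are the targets of rolipram. *Pde4a* (ENSMUSG00000032177, chromosome 9, 21165714 to 21213248, plus strand) had 1244, 1263 and 1302 normalized counts in *Aif1*-/- replicates 1, 2 and 3, against 846, 1109.8 and 956 in WT replicates 1, 2 and 3. The *Aif1*-/- libraries lay close together above all WT libraries. The means were 1269.8 ± 29.6 in *Aif1*-/- BMMs and 970.4 ± 133 in WT BMMs (SD, n = 3 each). *Pde4a* was 30.7% higher (log2 fold change 0.39, SE 0.10, 95% interval 0.17 to 0.61, adjusted p = 0.0205). The call was lost without any 1 of the *Aif1*-/- replicates (adjusted p = 0.0669, 0.0732 and 0.0870 without replicates 1, 2 and 3) and without WT replicate 1 (log2 fold change 0.30, adjusted p = 0.0695).

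*Pde4b* (ENSMUSG00000028525, chromosome 4, 102087543 to 102607259, plus strand) encodes the PDE4 known in mouse macrophages for its part in the tumour necrosis factor response to lipopolysaccharide. It had 326, 366 and 287 normalized counts in *Aif1*-/- replicates 1, 2 and 3, against 353, 328 and 363 in WT replicates 1, 2 and 3. The *Aif1*-/- libraries spanned the whole WT range. The means were 326 ± 39.6 in *Aif1*-/- BMMs and 348 ± 18.3 in WT BMMs (SD, n = 3 each), with a log2 fold change of -0.09 (SE 0.12, 95% interval -0.36 to 0.18, adjusted p = 0.691).

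*Pde4d* (ENSMUSG00000021699, chromosome 13, 108449948 to 109953461, plus strand) encodes the PDE4 known to be brought to beta receptors by arrestins. Its normalized counts were 224, 176 and 215 in *Aif1*-/- replicates 1, 2 and 3, against 128, 163 and 88.7 in WT replicates 1, 2 and 3. All *Aif1*-/- libraries were above all WT libraries, but *Aif1*-/- replicate 2 and WT replicate 2 were close. *Pde4d* averaged 205 ± 25.7 in *Aif1*-/- BMMs and 126 ± 37.1 in WT BMMs (SD, n = 3 each). The log2 fold change of 0.70 (SE 0.22, 95% interval 0.21 to 1.19) fell just short of the threshold, with an adjusted p of 0.0503. The WT libraries stood in the order of their shares of reads assigned to no gene, with 163 counts at 40.4%, 128 at 32.4% and 88.7 at 25.5%. The *Aif1*-/- libraries did not, with 224 at 33.6%, 176 at 33.6% and 215 at 35.7%, and the part of this share in the *Pde4d* levels was not tested beyond the covariate fit. With that share as a covariate the log2 fold change was 0.66 (adjusted p = 0.00183), and without WT replicate 2 it was 0.94 (adjusted p = 0.00678). *Pde4d* was also called without WT replicate 3 (0.50, adjusted p = 0.0356), by DESeq2 (0.70, adjusted p = 0.0169) and by limma-voom (0.75, adjusted p = 0.0427), so its side of the threshold depended on the setting while its direction did not.

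PDE7A and PDE8A are cAMP-specific enzymes that rolipram does not inhibit. *Pde7a* (ENSMUSG00000069094, chromosome 3, 19223108 to 19311322, minus strand) had 1097, 1209 and 1221 normalized counts in *Aif1*-/- replicates 1, 2 and 3, against 1005, 1106 and 1015 in WT replicates 1, 2 and 3. *Aif1*-/- replicate 1 lay just under WT replicate 2, and the other *Aif1*-/- libraries lay above all WT libraries. *Pde7a* averaged 1176 ± 68.3 in *Aif1*-/- BMMs and 1042 ± 55.7 in WT BMMs (SD, n = 3 each), and its log2 fold change of 0.17 did not pass (SE 0.08, 95% interval -0.0037 to 0.35, adjusted p = 0.181). It shares 48 exon bases with the antisense gene *Gm16093*, which had 55 raw counts over the *Aif1*-/- libraries and 70 over the WT libraries.

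*Pde8a* (ENSMUSG00000025584, chromosome 7, 81213596 to 81334533, plus strand) had 4148, 4419 and 4094 normalized counts in *Aif1*-/- replicates 1, 2 and 3, against 3865, 4084 and 3961 in WT replicates 1, 2 and 3. The genotypes did not overlap, although the lowest *Aif1*-/- library was almost level with the highest WT library. *Pde8a* averaged 4220.4 ± 174 in *Aif1*-/- BMMs and 3969.9 ± 109.6 in WT BMMs (SD, n = 3 each), with a log2 fold change of 0.09 that did not pass (SE 0.06, 95% interval -0.05 to 0.23, adjusted p = 0.422).

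**Figure D2:**
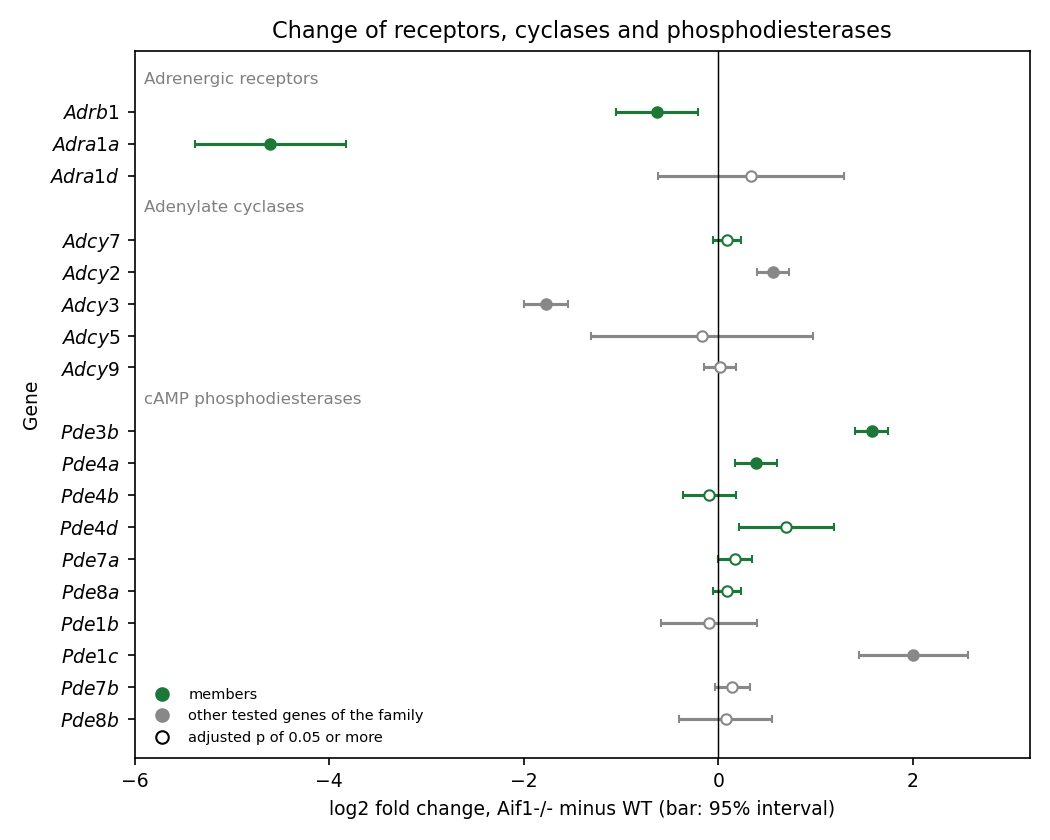
Log2 fold changes (Aif1-/- minus WT) with 95% intervals for the 9 genes (members, green) and for other tested genes of their families (grey), with open circles at an adjusted p of 0.05 or more. Each family held calls in its tested genes: Adra1a at -4.61 and Adrb1 at -0.63, Adcy3 at -1.77 and Adcy2 at 0.56, Pde3b at 1.58 and Pde1c at 2.0.

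The 6 phosphodiesterases share a catalytic domain, and the stretch that encodes its metal-binding signature shows how alike their coding bases are there. The sequences below are 60 coding bases of each gene, 5′ to 3′ on the coding strand, from the longest coding transcript of GENCODE M21 (GRCm38). Capitals mark the 30 bases that encode the signature, which was searched as histidine, aspartate, any 2 residues, histidine, any 4 residues, and asparagine or glutamine.
Pde3b: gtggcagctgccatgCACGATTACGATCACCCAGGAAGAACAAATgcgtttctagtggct
Pde4a: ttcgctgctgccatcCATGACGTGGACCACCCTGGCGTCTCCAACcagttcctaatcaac
Pde4b: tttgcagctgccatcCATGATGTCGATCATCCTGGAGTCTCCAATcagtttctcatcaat
Pde4d: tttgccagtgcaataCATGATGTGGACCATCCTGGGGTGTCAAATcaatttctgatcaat
Pde7a: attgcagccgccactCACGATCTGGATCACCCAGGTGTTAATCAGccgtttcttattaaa
Pde8a: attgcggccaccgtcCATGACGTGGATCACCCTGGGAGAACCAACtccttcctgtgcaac

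In these windows *Pde4a* and *Pde4b* had the same base at 49 of 60 positions, *Pde4b* and *Pde4d* at 48, and *Pde4a* and *Pde4d* at 44, while pairs with *Pde3b*, *Pde7a* or *Pde8a* matched at 33 to 42. Over whole transcripts, the longest identical run was 32 bases between *Pde4b* and *Pde4d*, 29 between *Pde4a* and *Pde4b*, and 20 between *Pde4a* and *Pde4d*. Every other pair of the 6 shared at most 16 bases in a row. The counts add all transcripts of a gene, and the genes differ in how many coding transcripts are annotated, with 12 for *Pde4d*, 9 for *Pde4b*, 3 each for *Pde4a* and *Pde7a*, and 1 each for *Pde3b* and *Pde8a*. A change of isoform within *Pde4a*, *Pde4b*, *Pde4d* or *Pde7a* could therefore not be seen as such in these values. Where isoforms differ in length, it could also shift the count of the gene.

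The promoters of 6 of the 9 genes (13 promoters, RefSeq on GRCm38.p6, 250 bases before to 50 after a start) were searched on both strands for the cAMP response element TGACGTCA and for its shorter part TGACG, which the full element contains. *Adra1a*, *Pde3b* and *Pde7a* were not searched here. None of the 13 promoters held the full element, which was found in 1.79% of 32851 promoters. The shorter part was found in 5 of the 13, at 1 promoter each of *Adrb1*, *Adcy7*, *Pde4a*, *Pde4b* and *Pde8a*, and in 20.81% of all promoters.

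Levels of different genes were compared as normalized counts per kilobase of exon. In *Aif1*-/- BMMs the order was *Adcy7* (1290.4 ± 43.7 per kilobase), *Pde8a* (1043 ± 43.0), *Pde3b* (264 ± 8.14), *Pde4a* (166 ± 3.86), *Pde7a* (152 ± 8.82), *Adrb1* (70.8 ± 7.96), *Pde4b* (30.9 ± 3.75), *Pde4d* (17.1 ± 2.14) and *Adra1a* (0.405 ± 0.0876). No neighbours in that order overlapped in their library ranges. In WT BMMs the order was *Adcy7* (1213 ± 51.2 per kilobase), *Pde8a* (981 ± 27.1), *Pde7a* (135 ± 7.19), *Pde4a* (127 ± 17.3), *Adrb1* (109 ± 29.2), *Pde3b* (88.5 ± 6.02), *Pde4b* (32.9 ± 1.74), *Pde4d* (10.5 ± 3.09) and *Adra1a* (9.88 ± 1.63). There, *Pde7a*, *Pde4a* and *Adrb1* overlapped in their ranges, as did *Adrb1* and *Pde3b*, and *Pde4d* and *Adra1a*. *Pde3b* thus ranked 3 of 9 in *Aif1*-/- BMMs and 6 of 9 in WT BMMs, and per kilobase of the longest coding transcript *Pde4a* and *Pde7a* changed places in WT BMMs only.

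*Adcy7* was the most abundant of 10 cyclase genes per kilobase in every library, with 48.2% to 50.1% of their summed level in *Aif1*-/- libraries and 53.0% to 54.2% in WT libraries. *Adcy2* came next and was higher, so that the ratio of *Adcy7* to *Adcy2* was 1.19 ± 0.0509 in *Aif1*-/- BMMs and 1.65 ± 0.0511 in WT BMMs (exact permutation p = 0.1). The cyclase sum was 2620.2 ± 90.2 per kilobase in *Aif1*-/- BMMs and 2265 ± 104 in WT BMMs, and its libraries did not overlap (exact permutation p = 0.1).

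Among 15 cAMP phosphodiesterase genes, *Pde8a* was the most abundant per kilobase in every library, with 50.4% to 53.4% of the sum in *Aif1*-/- libraries and 53.9% to 60.1% in WT libraries. *Pde3b* held 12.8% to 13.4% in *Aif1*-/- libraries and 4.36% to 5.77% in WT libraries. The ratio of *Pde8a* to *Pde3b* was 3.95 ± 0.0463 in *Aif1*-/- BMMs and 11.1 ± 1.09 in WT BMMs (exact permutation p = 0.1). *Pde4a* held 8.28 ± 0.208% in *Aif1*-/- BMMs and 7.42 ± 0.481% in WT BMMs, a smaller difference, and the shares of *Pde4b*, *Pde4d* and *Pde7a* overlapped between the genotypes. The phosphodiesterase sum was 2004 ± 45.2 per kilobase in *Aif1*-/- BMMs and 1704 ± 148 in WT BMMs (exact permutation p = 0.1). These shares and sums depend on the length used. The union of exons was 4.045 kilobases for *Pde8a* and 12.0 for *Pde4d*. The longest coding transcript was 3.80 kilobases for *Pde8a* and 4.21 for *Pde4d*, and shares on that length are not given here. Transcript shares say nothing of enzyme activity, which was not measured in these files.

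**Figure D3:**
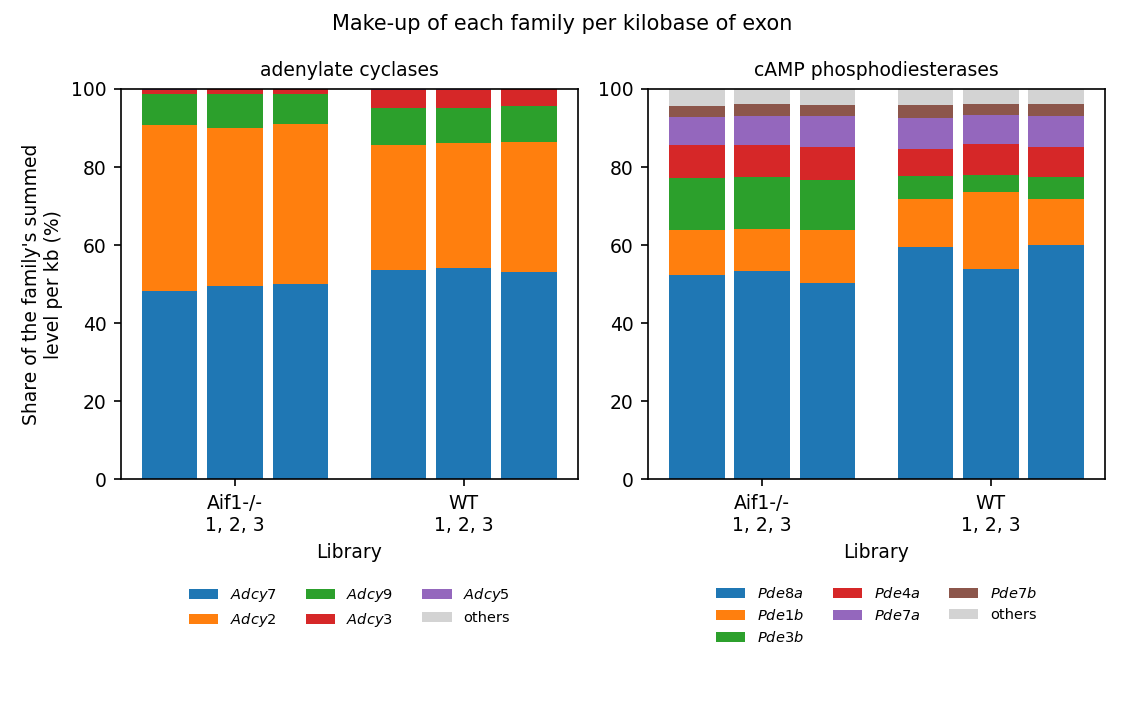
Share (%) of the summed level per kilobase of exon taken by each gene within the adenylate cyclases and cAMP phosphodiesterases, 1 bar per library with Aif1-/- on the left of each panel and WT on the right. Adcy7 took 48.2% to 50.1% in Aif1-/- libraries and 53.0% to 54.2% in WT libraries, and Pde3b took 12.8% to 13.4% in Aif1-/- libraries and 4.36% to 5.77% in WT libraries.

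The genes whose profile over the 6 libraries was closest to each of the 9 were taken by the root mean square difference of centred log2 CPM, a distance given with no test. *Pde3b* was closest to *Rps6ka1* (0.0509) and *Glo1* (0.0550), which were higher by 1.62 and 1.54 on the log2 scale. *Adra1a* was closest to *Apbb1* (0.143) and *Nrcam* (0.222), and *Adrb1* to *Dusp23* (0.0920) and *Map1a* (0.109). The nearest genes were *Sfxn5* and *Rnf215* for *Pde4a*, *Gm37199* and *Slc7a15* for *Pde4d*, *Sde2* and *Gm13215* for *Pde4b*, *Sf1* for *Adcy7*, *Helb* and *Rpap2* for *Pde7a*, and *Gm13991* and *Usp15* for *Pde8a*. Their distances lay between 0.00839 and 0.0867. None of these was one of the 9 genes. *Adra1a*, with an average log2 CPM of 1.09, was under the minimum of 2 and could not be chosen. With few places among many candidate genes, this absence says little about the 9 genes.

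The other genes of the pathway were followed through 12 lists of 114 genes, of which 80 were tested, 16 were higher and 11 were lower (33.8% called, beside 18.6% of all genes tested), with a median log2 fold change of 0.04. Of the other adrenergic receptors, *Adra2c*, a Gi-coupled receptor, was under the filter with 0, 0 and 0 raw counts in *Aif1*-/- libraries and 10, 8 and 13 in WT libraries, at least 8.13-fold lower if the *Aif1*-/- group is set at 3 counts in all. *Adra1b*, *Adra2b* and *Adrb3* had no counts in any library.

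Of the other cyclases 4 were tested. *Adcy2* was higher (4572 normalized counts in *Aif1*-/- BMMs and 3104 in WT BMMs, log2 fold change 0.56, adjusted p = 3.97e-04) and *Adcy3* was lower (184 in *Aif1*-/- BMMs and 632 in WT BMMs, log2 fold change -1.77, adjusted p = 1.07e-06), although *Adcy3* shares 1380 exon bases with *Cenpo* on the other strand. Of 4 further cAMP phosphodiesterases tested, the calmodulin-dependent *Pde1c* was higher (299 in *Aif1*-/- BMMs and 73.8 in WT BMMs, log2 fold change 2.0, adjusted p = 2.73e-04), a rise in the same direction as *Pde3b*. Of 3 tested genes of the cGMP phosphodiesterase list, all of them PDE6 subunits, *Pde6b* was lower by 1.56 on the log2 scale (adjusted p = 0.00211).

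Between receptor and cyclase, *Gnas*, which encodes Gs alpha, was the only call among 10 tested G protein alpha subunits, with 153 normalized counts in *Aif1*-/- BMMs and 253 in WT BMMs (log2 fold change -0.73, adjusted p = 0.0135). This was lost without any 1 of the *Aif1*-/- replicates (adjusted p = 0.0514 to 0.0715), and the locus holds genes on both strands. Per kilobase, *Gnas* stood at only 13.7 in *Aif1*-/- BMMs and 22.6 in WT BMMs, against 5470 and 4769 for *Gnai2*. *Gnas* shares 1469 exon bases with *Gm20721* on the other strand, and how fully these counts capture *Gnas* RNA was not tested. Of 7 receptor kinases and arrestins, which desensitize receptors such as *Adrb1*, *Arrb2* was higher (0.31, adjusted p = 0.0111) and *Grk5* lower (-0.65, adjusted p = 0.00239). *Grk3* was lower with 0 raw counts in every *Aif1*-/- library and 23, 32 and 37 in WT libraries, at least 24.1-fold lower on the same terms. Per kilobase, *Grk3* stood at only 3.13 in WT BMMs, against 1412 for *Grk2*. Neither *Grk2* (0.08, adjusted p = 0.595) nor the arrestin *Arrb1* (0.04, adjusted p = 0.750) passed. Downstream of cAMP, 3 of 8 protein kinase A genes were higher (*Prkar1b* 2.14, *Prkar1a* 0.31 and *Prkar2a* 0.24, adjusted p = 0.00325, 0.00898 and 0.0362) and *Prkar2b* was lower (-0.39, adjusted p = 0.00807), all of them regulatory subunits, while the catalytic subunits *Prkaca* and *Prkacb* did not pass (0.02 and 0.09). *Prkar1b* rested on raw counts of 30, 22 and 25 in *Aif1*-/- libraries and 9, 6 and 7 in WT libraries. It shares 341 exon bases with *Gm15672* on the same strand. That gene had 8 raw counts over the *Aif1*-/- libraries and 35 over the WT libraries. The exporter of cAMP *Abcc4* was higher (0.44, adjusted p = 0.00126) and *Abcc5* lower (-0.39, adjusted p = 0.0460). Of 12 A-kinase anchoring proteins, *Akap10* (0.26) and *Akap13* (0.22) were higher (adjusted p = 0.0176 and 0.0297). Beside the counts of these lists, 8.04% of all genes tested were called higher and 10.5% lower. The calls of *Arrb2*, *Prkar1a*, *Prkar2a*, *Prkar2b*, *Abcc5*, *Akap10* and *Akap13* were each lost without at least 1 of the *Aif1*-/- replicates, with adjusted p at its highest of 0.0816, 0.0652, 0.189, 0.0645, 0.178, 0.105 and 0.165 in that order. *Abcc5* was also lost with upper quartile factors (adjusted p = 0.0726), by limma-voom (0.0590) and under the filter of 50 counts (0.0568).

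**Figure D4:**
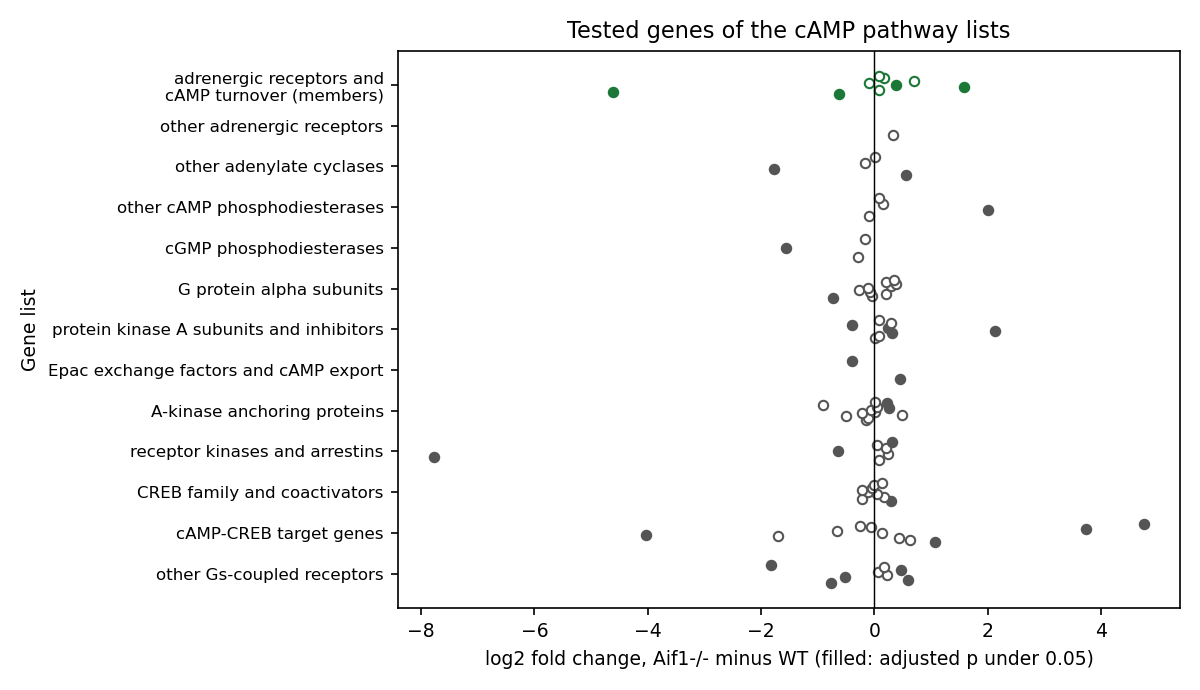
Log2 fold changes (Aif1-/- minus WT) of tested genes of the 12 pathway lists and of the 9 genes (members, green), with filled circles at an adjusted p under 0.05. Most tested genes lay near 0, and the farthest points to the left, Grk3 and Adra1a, had at most 3 raw counts in any Aif1-/- library, so that the plotted value of Grk3 is no measure of size.

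**Figure D5:**
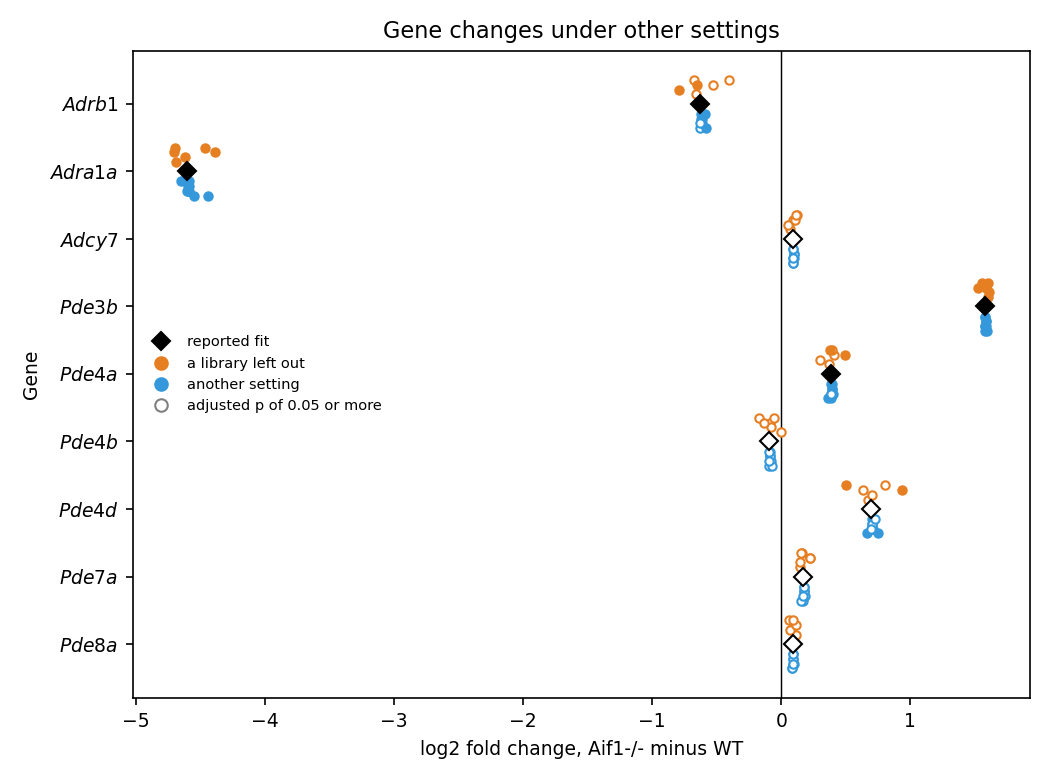
Log2 fold change (Aif1-/- minus WT) of the 9 genes as reported (diamonds), with each library left out in turn (orange) and under the other settings (blue), open where the adjusted p was 0.05 or more, with points of a gene spread vertically to be seen. Adra1a and Pde3b stayed filled throughout, while Adrb1 spanned -0.79 to -0.40 and Pde4d 0.50 to 0.94 when libraries were left out.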

How the data were processed

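RNA-seq of immortalized BMMs used 200 ng of total RNA, depleted of ribosomal RNA with a kit sold as stranded, and single-end reads. The deposited values are raw counts per gene, which the authors made by trimming (Trim Galore 0.5), alignment to GRCm38 with at most 1 location per read (TopHat2 2.0.13) and counting on Ensembl release 84 (HTSeq 0.6.1p1, stated as run with default parameters). Because a read was kept at 1 place only, reads of near-identical copies can be lost or misplaced, and since the default of HTSeq counts by strand while the strand setting that this kit needs is not given in the sources used here, every count is subject to the limit that the counted strand may not match the kit. Entries that name no gene (reads assigned to no gene 25.5% to 40.4%, ambiguous reads 4.55% to 7.15% of counted reads) stayed out of library sizes and tests.

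Genotype and replicate came from the sample titles. Counts were fitted on genotype alone with edgeR 4.0.16 (R 4.3.3) using TMM normalization, the default expression filter and the quasi-likelihood test, with Benjamini-Hochberg adjustment over 17406 genes and a threshold of 0.05. The SE is the absolute log2 fold change over the square root of F. Normalized counts are counts over the TMM-scaled library size, brought to the mean library. Levels per kilobase used the union of exons of GENCODE M21 (GRCm38), to which 47310 of 47729 genes and 173 of 174 listed genes matched (*Pde2a* was not analysed here). The procedure was also run on counts simulated with independent libraries, which does not test the effect of a shared line or of outlying libraries. Gene totals of 17707986 to 29314253 set the precision, and floors cover counting error only.

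The 9 genes, the pathway lists and the markers were chosen with earlier results of these data known. Named are all 9 genes, in each list up to 4 called genes with the smallest adjusted p, the most abundant gene of a list where it helps, and for each of the 9 the 2 closest profiles among genes averaging 2 or more in log2 CPM (prior count 2). *Fosb*, *Fos*, *Dusp1*, *Adra2c*, *Adra1b*, *Adra2b*, *Adrb3*, *Grk2*, *Arrb1*, *Prkaca* and *Prkacb* were named after their values were seen. *Ptgir* was named beyond the limit of 4 in its list. Alternatives were other size factors, DESeq2 1.42.0, limma-voom (limma 3.58.1), no filter, at least 50 counts in 3 libraries and the replicate number as a block. Further ones were the share of reads assigned to no gene as a covariate, a test against a 1.5-fold change, and leaving out each of the 6 libraries. Results for 2 further genes are not reported here.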

Additional observations from a re-analysis of the deposited data

How the results depend on the processing

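Of 135 alternative results for the 9 genes, 117 kept their side of the threshold, 11 lost a call, 7 gained it and 0 reversed direction. By limma-voom *Adrb1* was not called (-0.63). Against a 1.5-fold change *Adrb1* (-0.63) and *Pde4a* (0.39) were not called, and 1 of the 9 genes was called higher and 1 lower, with 1 lower also by limma-voom, while the pathway lists held 4 higher and 5 lower and all genes 374 higher and 633 lower. *Pde4d* was called with DESeq2 size factors (0.70), DESeq2 (0.70), limma-voom (0.75), no filter (0.71) and the share of reads assigned to no gene as a covariate (0.66). That covariate gave 2678 genes higher and 2839 lower over all genes. Leaving out each library in turn moved the log2 fold change of *Adrb1* between -0.79 and -0.40, of *Pde4a* between 0.30 and 0.50 and of *Pde4d* between 0.50 and 0.94. It left 1 to 3 of the 9 genes called higher and 1 to 2 lower, 9 to 23 of the pathway genes higher and 9 to 13 lower, and 874 to 2404 of all genes higher and 1166 to 2485 lower. With the length of the longest coding transcript, *Pde4a* ranked 3 and *Pde7a* 4 in WT BMMs. The cause of these shifts was not tested, except that a left-out library leaves fewer samples.

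The replicate numbers gave no sign of pairing the samples, which 3 libraries per genotype cannot exclude. Deviations of same-numbered libraries from their genotype mean correlated at 0.0601, -0.0753 and -0.0858, and those of other pairs at -0.0741 to 0.1322. With the replicate number as a block, *Adrb1* was at -0.59, *Adra1a* at -4.59, *Pde3b* at 1.58, *Pde4a* at 0.40 and *Pde4d* at 0.72, with the calls of the 9 genes as before. Of the other listed genes the block lost *Prkar2a* (adjusted p = 0.0718), *Akap13* (0.0687) and *Abcc5* (0.0560), and 1267 genes were higher and 1605 lower. At these depths the *Adra1a* level in *Aif1*-/- BMMs rests on 9 raw counts in all.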

Other observations

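Genes known to be induced through cAMP and CREB held calls in both directions. Of 11 tested, 3 were higher and 1 was lower, beside 8.04% higher and 10.5% lower of all genes tested. *Arg1*, which encodes arginase-1, averaged 904 normalized counts in *Aif1*-/- BMMs and 32.7 in WT BMMs (log2 fold change 4.76, adjusted p = 3.66e-07, edgeR's quasi-likelihood test). *Nr4a1*, an orphan nuclear receptor gene, averaged 112 in *Aif1*-/- BMMs and 53.2 in WT BMMs (1.07, adjusted p = 0.00583). *Il10*, which encodes an anti-inflammatory cytokine, had raw counts of 34, 16 and 9 in *Aif1*-/- libraries and of 3, 2 and 0 in WT libraries (3.73, adjusted p = 0.00445). *Sik1*, which encodes a kinase that restrains CREB coactivators, had raw counts of 8, 3 and 5 in *Aif1*-/- libraries and of 83, 114 and 144 in WT libraries (-4.04, adjusted p = 1.09e-05). *Fos* had raw counts of 530, 278 and 356 in *Aif1*-/- libraries and of 76, 835 and 207 in WT libraries, and *Dusp1* had 724, 437 and 519 in *Aif1*-/- libraries and 603, 2018 and 822 in WT libraries, with WT replicate 2 highest in both and neither called. Of 9 tested genes of the CREB family and its coactivators, *Creb1* was higher (0.29, adjusted p = 0.0400, at most 0.169 with a library left out and 0.0526 with upper quartile factors).

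The list of other Gs-coupled receptors, which includes the receptor partner *Ramp1*, also held calls in both directions. Of 8 tested, *Gpr65*, a proton-sensing receptor (0.47, adjusted p = 0.00323), and *Ptger4*, a prostaglandin E2 receptor (0.59, adjusted p = 0.010), were higher. *Ptger2*, the other Gs-coupled prostaglandin E2 receptor, was lower (-0.76, adjusted p = 8.03e-04), with 227 normalized counts in *Aif1*-/- BMMs and 385 in WT BMMs. The prostacyclin receptor gene *Ptgir* (-0.51, adjusted p = 0.0223) and *Ramp1*, which encodes a partner of calcitonin-family receptors (-1.82, adjusted p = 1.06e-04), were lower too. The calls of *Ptger4* and *Ptgir* were lost without *Aif1*-/- replicate 2 (adjusted p = 0.0681 and 0.0880), and that of *Ptgir* also without *Aif1*-/- replicate 1 (0.147). The 3 remaining genes did not pass. Over all genes tested, 8.04% were higher and 10.5% lower.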
